A study of Mus musculus with 24 samples.

Results

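The core loop of the circadian clock was followed in the hippocampus of 48 male mice through 10 genes, chosen by name for their place in the loop: the activators Arntl (Bmal1), Clock and Npas2, the repressors Per1, Per2, Per3, Cry1 and Cry2, and the kinases Csnk1d and Csnk1e. Of the 56605 unique probes on the array, 21 carried a transcript of these genes, and of the 23787 genes that could be named on the array they make up 10. Arntl, Clock, Csnk1d and Csnk1e had 3 probes each, Per2, Per3 and Cry1 had 2 each, and Npas2, Per1 and Cry2 had 1 each. Where a gene had several probes, the brightest stands for it and the others are described beside it.

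In the loop, a dimer of BMAL1 with CLOCK, or with its relative NPAS2 in the forebrain, binds E-box sequences and switches on the Per and Cry genes. The PER and CRY proteins then enter the nucleus and shut the dimer off, and casein kinases 1 delta and epsilon phosphorylate PER and so set how long it lasts. Per1 is also a direct target of the glucocorticoid receptor, one of the routes by which adrenal hormone reaches clocks outside the hypothalamus.

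All animals were Swiss-Webster males, with an age given as 12 weeks. The methods of the study put their move to single cages near that age and some weeks before the treatment, so that they may have been older when killed. The treated groups drank corticosterone at 100 µg/ml over a single night, the active phase of a mouse, in water with 0.45% hydroxypropyl-β-cyclodextrin as carrier, and the control groups drank the carrier alone. Groups of 8 control and 8 corticosterone-treated animals were then killed in the first, the fifth and the ninth hour of the light phase, which is the resting period, so that each hour holds different animals. By the methods of the study, the control animals were brothers of the treated ones, and whether the animals of an array were brothers is not given in the sources used here. Each of 24 arrays took the hippocampal RNA of 1 control animal in the Cy3 channel and of 1 treated animal in the Cy5 channel, and the arrays lay on 3 slides that each held all 3 hours. Values are normalized signal intensities of a probe, which can be compared between animals but not between probes.

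On a single array, 57.9 to 64.2% of the Cy3 spots and 61.0 to 70.4% of the Cy5 spots stood well above background. All 10 markers of hippocampal neurons stood well above background in all 48 channels. Of 7 genes known to be induced by glucocorticoids, 7 were higher in treated animals at the first hour (median log2 difference 0.93), 5 were higher and none lower at the fifth, and 1 was higher and 4 were lower at the ninth. None of the 10 neuronal markers passed between treated and control animals in limma's separate channel test at an adjusted p of 0.05. At an unadjusted p under 0.05 there were 2, 1 and 1 of the 10 at the 3 hours, beside 17588, 17654 and 15802 of all 56605 probes. Of 4 endothelial markers, 3 were lower and 1 was higher at the first hour, where their summed signal was 5795 to 7633 in treated and 8394 to 10408 in control animals. At the fifth hour 2 were lower and 1 was higher, with sums of 6699 to 8400 and 8497 to 10756, which again did not overlap. Of 5 microglial markers, 3 were lower at the first hour, with summed signals of 11589 to 15573 in treated and 13440 to 15932 in control animals. Of 5 astrocyte markers, 1 was higher and 1 lower at the first hour and 1 was higher and 2 were lower at each later hour. Their sums did not overlap at the first hour, at 25523 to 27338 in treated and 22210 to 25505 in control animals. Of 5 oligodendrocyte markers, 2, 3 and 2 were higher over the 3 hours and 1 was lower at each, with median sums of 54769, 52272 and 52156 in treated and 62058, 64414 and 63032 in control animals. At the ninth hour 1 endothelial marker was higher and 1 lower, and 2 and 1 microglial markers were lower at the fifth and the ninth. The part of these cells in the results below was not tested. The hippocampus was measured as a whole, and fewer cells of a type cannot be told apart from less RNA per cell.

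The promoters of Per1, Cry1 and Arntl are printed because Per1 and Arntl carry corticosterone differences described below and Cry1 is the partner of Per1 with the same E-box. Each window covers 250 bases before and 50 bases from the transcript start, in the RefSeq annotation of mouse GRCm38.p6, and is written 5′ to 3′ on the strand of the gene. Capitals mark the E-box CACGTG, its variant CACGTT and the ROR/REV-ERB core AGGTCA, on either strand.
Per1, chr11:69098699-69098998, plus strand: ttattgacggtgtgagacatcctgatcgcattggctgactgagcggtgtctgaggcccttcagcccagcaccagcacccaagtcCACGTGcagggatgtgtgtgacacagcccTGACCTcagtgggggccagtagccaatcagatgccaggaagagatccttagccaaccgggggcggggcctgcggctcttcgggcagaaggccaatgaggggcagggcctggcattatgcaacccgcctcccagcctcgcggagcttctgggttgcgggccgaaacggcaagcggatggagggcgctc
Cry1, chr10:85185005-85185304, minus strand: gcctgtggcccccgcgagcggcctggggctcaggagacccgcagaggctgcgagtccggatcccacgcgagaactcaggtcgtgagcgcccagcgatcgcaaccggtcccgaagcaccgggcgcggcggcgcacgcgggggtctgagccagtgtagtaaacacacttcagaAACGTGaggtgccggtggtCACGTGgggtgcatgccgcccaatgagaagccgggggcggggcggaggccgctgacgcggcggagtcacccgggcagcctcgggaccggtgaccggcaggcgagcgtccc
Arntl, chr7:113207261-113207560, plus strand: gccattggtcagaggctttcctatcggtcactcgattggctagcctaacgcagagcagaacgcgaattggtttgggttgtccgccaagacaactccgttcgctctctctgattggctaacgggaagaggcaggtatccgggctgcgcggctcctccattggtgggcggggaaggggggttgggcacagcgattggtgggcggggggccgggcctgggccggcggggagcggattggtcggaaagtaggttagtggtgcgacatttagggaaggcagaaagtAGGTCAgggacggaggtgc

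Per1 held an E-box that began 166 bases before the start, and Cry1 held one that began 60 bases before it, together with the variant CACGTT on the opposite strand from base -79. The window of Cry2 held that variant on the opposite strand from base -166. The printed Arntl window held the core AGGTCA, the letters read by the ROR activators and the REV-ERB repressors, 32 bases into the transcript. Windows were at hand for 8 of the 10 genes, 15 windows in all. Arntl and Per1 each had a second window, not printed, that held none of the motifs searched. Across the 32851 windows of the table, 7.15% held CACGTG and 4.68% held CACGTT. The ROR/REV-ERB core was in 16.3% of windows and in 3 of those of the clock genes, in Arntl, Clock and Per1. The D-box TTATGTAA, read by DBP and its relatives, was in 0.938% of windows and occurred 2 times in the window of Per3. The cAMP response element TGACGTCA (1.79% of windows) and the full palindrome of the glucocorticoid receptor (0.00913%) were in none of the 15. The receptor half-site AGAACA (19% of windows), of which the palindrome holds a copy on each strand with 3 bases between them, was found in Csnk1e. Within a window no match overlapped another, but the windows of a gene can overlap, and 1 match of Csnk1e lay in 2 of them. Both strands were searched, and a match describes the letters of a window only.

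At the first hour the signals of Per1, Arntl, Npas2 and Csnk1d rose against control, by 20.6, 21.4, 17.7 and 28.4%, while those of Clock fell by 9.88% and those of Csnk1e fell by 9.84%. At the fifth hour Per1, Npas2 and Csnk1d were still higher and Clock still lower. At the ninth hour a lower level of Per2 was the 1 difference that passed in limma's separate channel test. In the separate channel test of limma, 7 of the 21 probes passed an adjusted p of 0.05 at the first hour (5 higher and 2 lower), which is 33.3% of them beside 17.5% of all probes on the array. The fifth hour had 5 (3 higher and 2 lower), or 23.8% beside 18.1% of all probes, and the ninth hour had 1, or 4.76% beside 14% of all probes. Among probes with a signal of 50 or more the shares at the 3 hours were 20.1, 20.1 and 14%. Limma on log ratios, which takes the animals of an array as pairs, called 5, 4 and 2 of the 21. Over all 56605 probes it called 10280, 10509 and 7821. It added Per3 at the fifth hour (adjusted p = 0.0381) and Csnk1d at the ninth (2.63e-05), both higher. The median log2 difference of the 21 probes was 0.08, 0.02 and -0.03 at these hours, with a median over all probes of -0.000916, 0.000955 and 0.00063. Because treated animals were always read in Cy5, a preference of a probe for a dye cannot be told apart from corticosterone within an hour, and it cancels only where the hours are compared with each other.

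**Figure D1:**
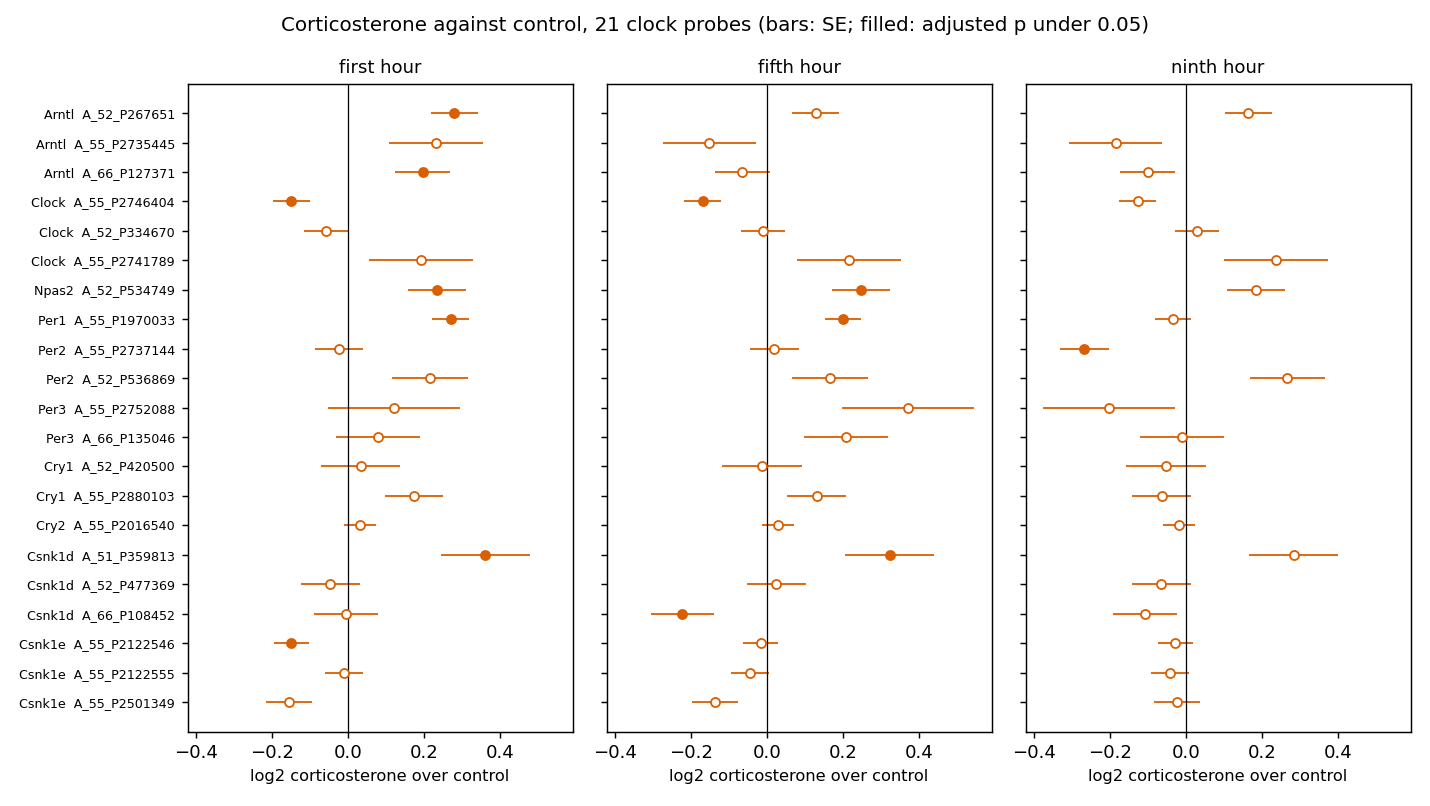
Log2 signal of corticosterone-treated over control animals for each of the 21 clock probes at the first, the fifth and the ninth hour, with bars of 1 SE (8 animals per group). Filled points passed an adjusted p of 0.05; 7 probes are filled at the first hour, 5 at the fifth and 1, Per2, at the ninth.

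Among the activators, the brightest Arntl probe was called higher in treated animals at the first hour. The brightest Clock probe was called lower at the first and the fifth. Arntl encodes BMAL1, the partner without which the loop does not turn. The signal of its brightest probe (A_52_P267651) was 679 to 867 (median 780) in control animals and 743 to 1067 (median 972) in treated animals at the first hour. Most treated animals lay above the control range, although the groups overlapped through a treated animal at 743, and the treated channel was the higher on 7 of 8 arrays. The log2 difference was 0.28 ± 0.06 (SE, n = 8 per group, adjusted p = 0.000606). It was 0.29 within slide 1, 0.28 within slide 2 and 0.27 within slide 3.

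At the fifth hour the same Arntl probe had medians of 952 in control and 1027 in treated animals, and at the ninth hour 779 and 885. The groups overlapped at both hours, and the log2 differences of 0.13 ± 0.06 (adjusted p = 0.127) and 0.16 ± 0.06 (adjusted p = 0.0556) did not pass. Set against the first hour, the effect had changed by -0.15 ± 0.09 at the fifth and by -0.12 ± 0.09 at the ninth, and neither change passed. A dimmer Arntl probe (A_66_P127371) also rose at the first hour, from a median of 119 in control to 134 in treated animals. Its log2 difference of 0.20 ± 0.07 was close to the threshold (adjusted p = 0.0494) and was lost without slide 1 (adjusted p = 0.16), slide 2 (0.29) or slide 3 (0.0698), and without replicate 1 of that hour it was 0.14 (0.198). With slide as a block the adjusted p was 0.0533, and the call was also lost in limma on log ratios. The last Arntl probe (A_55_P2735445) had a log2 difference of 0.23 ± 0.12 at the first hour (adjusted p = 0.194). Both dimmer probes pointed down at the fifth and the ninth hour, where the brightest pointed up, with log2 differences between -0.19 and -0.07 that did not pass.

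CLOCK is the DNA-binding partner of BMAL1. Its brightest probe (A_55_P2746404) read 4619 to 5170 (median 4778) in control and 3788 to 5695 (median 4281) in treated animals at the first hour, and 4655 to 5388 (median 5101) and 4322 to 4762 (median 4437) at the fifth. The treated channel was the lower on 7 of 8 arrays at the first hour and on all 8 at the fifth, with overlapping groups. Clock fell by 0.15 ± 0.05 on the log2 scale at the first hour (adjusted p = 0.0177) and by 0.17 ± 0.05 at the fifth (adjusted p = 0.007). The ninth hour had medians of 4637 and 4222, and the log2 difference of -0.13 ± 0.05 was just outside the threshold (adjusted p = 0.0536). The call of the first hour was lost without slide 1 (adjusted p = 0.0558) or slide 2 (0.204), and that of the fifth without slide 3 (0.107). From the first hour the Clock effect differed by -0.02 ± 0.07 at the fifth and by 0.02 ± 0.07 at the ninth. These values do not separate corticosterone from dye.

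The other Clock probes did not show this fall. The probe A_52_P334670 had medians of 963 in control and 911 in treated animals at the first hour and log2 differences of -0.06, -0.01 and 0.03 over the 3 hours, each with an SE of 0.06. The probe A_55_P2741789 was not well above background in any control animal at the first and the ninth hour, and in 4 and 6 of the 8 treated animals it was. Its measured log2 differences were 0.19 ± 0.14 at the first hour (adjusted p = 0.402) and 0.24 ± 0.14 at the ninth (adjusted p = 0.296). Neither passed, and both rest on control signals that were not well above background. At the fifth hour, where 1 control and 4 treated animals were above background, its measured signals gave a log2 difference of 0.22 ± 0.14 (adjusted p = 0.433), which rests on control signals that were mostly not above background.

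NPAS2 stands in for CLOCK in the forebrain. Its only probe was dim, with signals of 37.7 to 54.5 (median 47.9) in control and 48.0 to 65.8 (median 54.3) in treated animals at the first hour, and of 40.3 to 59.2 (median 46.7) and 47.3 to 65.3 (median 57.7) at the fifth. The groups overlapped, and the treated channel was the higher on 8 of 8 arrays at the first, 7 at the fifth and 8 at the ninth hour. Npas2 rose by 0.23 ± 0.08 on the log2 scale at the first hour (adjusted p = 0.0378) and by 0.25 ± 0.08 at the fifth (adjusted p = 0.0245). With the offset of 50 that the p values use, which shrinks the differences of dim probes, these were 0.11 and 0.12. The first-hour value leaned on 1 array, replicate 1, with a log2 ratio of 0.81. Without that array, in a fit chosen after the data had been seen, it was 0.15 (adjusted p = 0.206), and the fifth-hour call was lost without replicate 2 of that hour (0.0856). In limma on log ratios, which compares the animals of an array as pairs, neither call held (0.0692 and 0.0502). The ninth hour had medians of 51.2 and 58.2 and a log2 difference of 0.19 ± 0.08 (adjusted p = 0.106). The first-hour call was lost without slide 1 (adjusted p = 0.199), slide 2 (0.201) or slide 3 (0.0629), and that of the fifth without slide 1 (0.132) or slide 3 (0.406), where within slide 2 the difference was 0.01.

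Of the repressors, Per1 had the smallest adjusted p of the loop in the main fit of the separate channel test, and its difference faded over the resting period. In control animals its probe (A_55_P1970033) read 2727 to 3039 (median 2884) at the first hour, and in treated animals 3244 to 3949 (median 3434). The fifth hour gave 2341 to 2774 (median 2650) and 2802 to 3628 (median 3007). At neither hour did the groups overlap. Per1 rose by 0.27 ± 0.05 on the log2 scale at the first hour (adjusted p = 1.99e-05) and by 0.20 ± 0.05 at the fifth (adjusted p = 0.00114).

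By the ninth hour the Per1 groups lay on top of each other, at 2757 to 3622 (median 3175) in control and 2769 to 3330 (median 3132) in treated animals. The log2 difference was -0.03 ± 0.05 (adjusted p = 0.651), and the treated channel was the higher on 2 of 8 arrays. Between the first and the ninth hour the corticosterone effect on Per1 thus changed by -0.31 ± 0.07 on the log2 scale (adjusted p = 0.00398), a comparison in which a dye preference cancels. This was the one probe of the 21 to pass for that change, 4.76% of them beside 0.827% of all probes and 1.38% of those with a signal of 50 or more. It was -0.22, -0.31 and -0.36 within slides 1, 2 and 3, and its adjusted p was 0.0773 without slide 2 and 0.218 without slide 3.

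When the corticosterone effect of the fifth hour was set against that of the first (0.0389% of all probes called) or of the ninth (0.083% called), none of the 21 probes passed in limma's separate channel test, nor in limma on log ratios. At an unadjusted p under 0.05 there were 3 of the 21 in each, beside 2530 and 2934 of all 56605 probes. For Per1 these changes were -0.07 ± 0.07 (adjusted p = 1) and -0.24 ± 0.07 (adjusted p = 0.188).

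**Figure D2:**
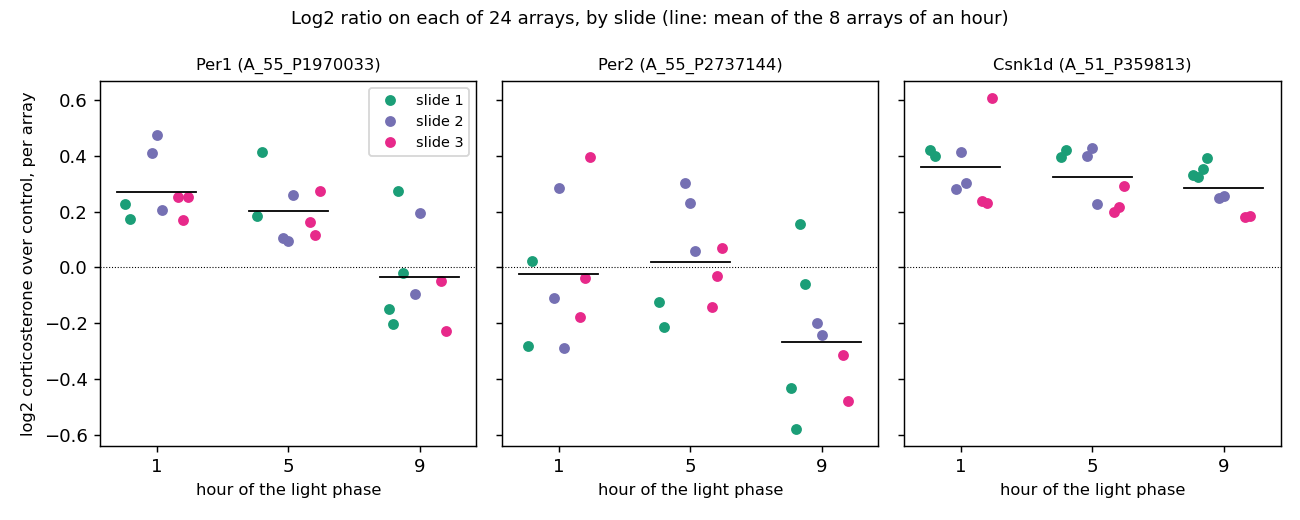
Log2 ratio of the corticosterone-treated over the control animal on each of the 24 arrays, against the hour of the light phase and coloured by slide, with the mean of each hour as a line. Per1 lies above 0 on all arrays of the first and the fifth hour and on 2 of 8 at the ninth, Per2 lies below 0 on 7 of 8 arrays at the ninth, and Csnk1d lies above 0 on all 24.

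Per2, whose protein is a main substrate of the casein kinases, passed at the ninth hour and not before. Its brightest probe (A_55_P2737144) had medians of 1881 in control and 1828 in treated animals at the first hour and of 1535 and 1442 at the fifth, with log2 differences of -0.02 ± 0.06 (adjusted p = 0.83) and 0.02 ± 0.06 (adjusted p = 0.874). At the ninth hour control animals read 1440 to 1949 (median 1727) and treated animals 1269 to 1605 (median 1397). The treated animals were the lower, with some overlap, on 7 of 8 arrays. Per2 fell by 0.27 ± 0.06 on the log2 scale at that hour (adjusted p = 0.00211), and within slides 1, 2 and 3 by 0.23, 0.22 and 0.40. Without slide 3 the adjusted p was 0.0553.

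Set against the first hour, the Per2 effect of the ninth had changed by -0.24 ± 0.09, and against the fifth by -0.29 ± 0.09, and neither passed over all probes (adjusted p = 0.32 and 0.351). A dim Per2 probe (A_52_P536869) was well above background in 3 to 5 of 8 control and in 7 or 8 of 8 treated animals. It had log2 differences of 0.22, 0.17 and 0.27 over the 3 hours, each with an SE of 0.10, and none passed. At the ninth hour its measured difference pointed up (adjusted p = 0.0791) where that of the brightest probe pointed down. The differences of the dim probe rest in part on control signals that were not well above background.

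Per3 and the Cry genes gave no called difference after corticosterone in the separate channel test, although Per3 did at the fifth hour in some alternatives. Per3 belongs to the PER family but is dispensable for the rhythm itself. Its brightest probe (A_55_P2752088) varied widely, from 359 to 746 (median 428) in control and from 379 to 633 (median 494) in treated animals at the first hour. The fifth hour gave 237 to 459 (median 333) and 300 to 723 (median 422), with the treated channel higher on 7 of 8 arrays and overlapping groups. The log2 differences were 0.12, 0.37 and -0.20 over the 3 hours, each with an SE of 0.17, and the smallest adjusted p was 0.121, at the fifth hour. In limma's test on log ratios the difference at the fifth hour passed (adjusted p = 0.0381), as it did with the authors' log2 ratios (0.0286). The dimmer probe (A_66_P135046) gave 0.08, 0.21 and -0.01, each with an SE of 0.11, and passed at the fifth hour without slide 1 (adjusted p = 0.0369) or replicate 2 of that hour (0.0201).

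CRY1 and CRY2 are the strong repressors of the dimer. The brightest Cry1 probe (A_52_P420500) was dim, with group medians between 61.9 and 82.4, and its log2 differences between treated and control animals were 0.03, -0.01 and -0.05, each with an SE of 0.10. A further Cry1 probe (A_55_P2880103) gave 0.17 ± 0.08 at the first hour (adjusted p = 0.118), 0.13 at the fifth and -0.06 at the ninth. The Cry2 probe (A_55_P2016540) was bright, with group medians between 14463 and 15522, and its log2 differences were 0.03, 0.03 and -0.02, each with an SE of 0.04.

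At the first hour the brightest probes of the kinases were called in opposite directions. The brightest Csnk1d probe (A_51_P359813) read 14154 to 15317 (median 14703) in control and 17173 to 21748 (median 18952) in treated animals at the first hour. The ninth hour gave 13864 to 15429 (median 14795) and 16943 to 18428 (median 17978). The groups did not overlap at these hours, and the treated channel was the higher on all 24 arrays of the study. The log2 differences were 0.36 ± 0.12 at the first hour (adjusted p = 0.0199), 0.32 ± 0.12 at the fifth (adjusted p = 0.0374) and 0.28 ± 0.12 at the ninth (adjusted p = 0.0807). In limma on the log ratios of the arrays the ninth-hour difference of 0.28 passed (adjusted p = 2.63e-05). From the first to the ninth hour the effect differed by -0.08 ± 0.17 (adjusted p = 1), so that these values do not separate corticosterone from dye.

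On an array of the fifth hour on slide 3 (replicate 7) this Csnk1d probe was low in both channels, at 5419 in the control and 6299 in the treated animal, where the other 7 arrays of that hour gave 12953 to 15638 and 17351 to 18979. Without that array, in a fit chosen after the data had been seen, the log2 differences were 0.36, 0.34 and 0.28 with adjusted p of 9.63e-11, 6.79e-09 and 1.35e-07. With it, the first-hour call was lost without slide 1 (adjusted p = 0.131) or slide 2 (0.162), and that of the fifth hour likewise (0.208 and 0.239) and without replicate 2 of that hour (0.0719).

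The other Csnk1d probes did not follow. The probe A_66_P108452 fell at the fifth hour, from a median of 82.2 in control to 70.3 in treated animals, by 0.22 ± 0.08 on the log2 scale (adjusted p = 0.0424). Within slides 1, 2 and 3 it fell by 0.53, 0.14 and 0.10, and the call was lost without slide 1 (adjusted p = 0.33), slide 2 (0.102) or slide 3 (0.0848) and without replicate 7 (0.103). Without replicate 2 of that hour the difference was -0.12 (adjusted p = 0.28), and with slide as a block the adjusted p was 0.05. The call was also lost in limma on log ratios. The probe A_52_P477369 stayed between group medians of 102 and 111, with log2 differences of -0.05, 0.02 and -0.07, each with an SE of 0.08.

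Csnk1e, which encodes the closely related kinase, was lower at the first hour. Its brightest probe (A_55_P2122546) read 3486 to 4362 (median 3949) in control and 3210 to 3859 (median 3513) in treated animals. The treated channel was the lower on 8 of 8 arrays, with overlapping groups, and the signal fell by 0.15 ± 0.05 on the log2 scale (adjusted p = 0.0119). At the fifth and the ninth hour the log2 differences were -0.02 and -0.03. The first-hour call was lost without slide 2 (adjusted p = 0.0571) or slide 3 (0.11). Among the other Csnk1e probes, A_55_P2501349 had log2 differences of -0.16 ± 0.06 at the first (adjusted p = 0.0517), -0.14 ± 0.06 at the fifth (adjusted p = 0.0929) and -0.02 ± 0.06 at the ninth hour. It passed at the first hour in 4 alternatives (0.0452 to 0.0492) and at the fifth without slide 2 (0.0367). The probe A_55_P2122555 had -0.01, -0.05 and -0.04, each with an SE of 0.05.

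**Figure D3:**
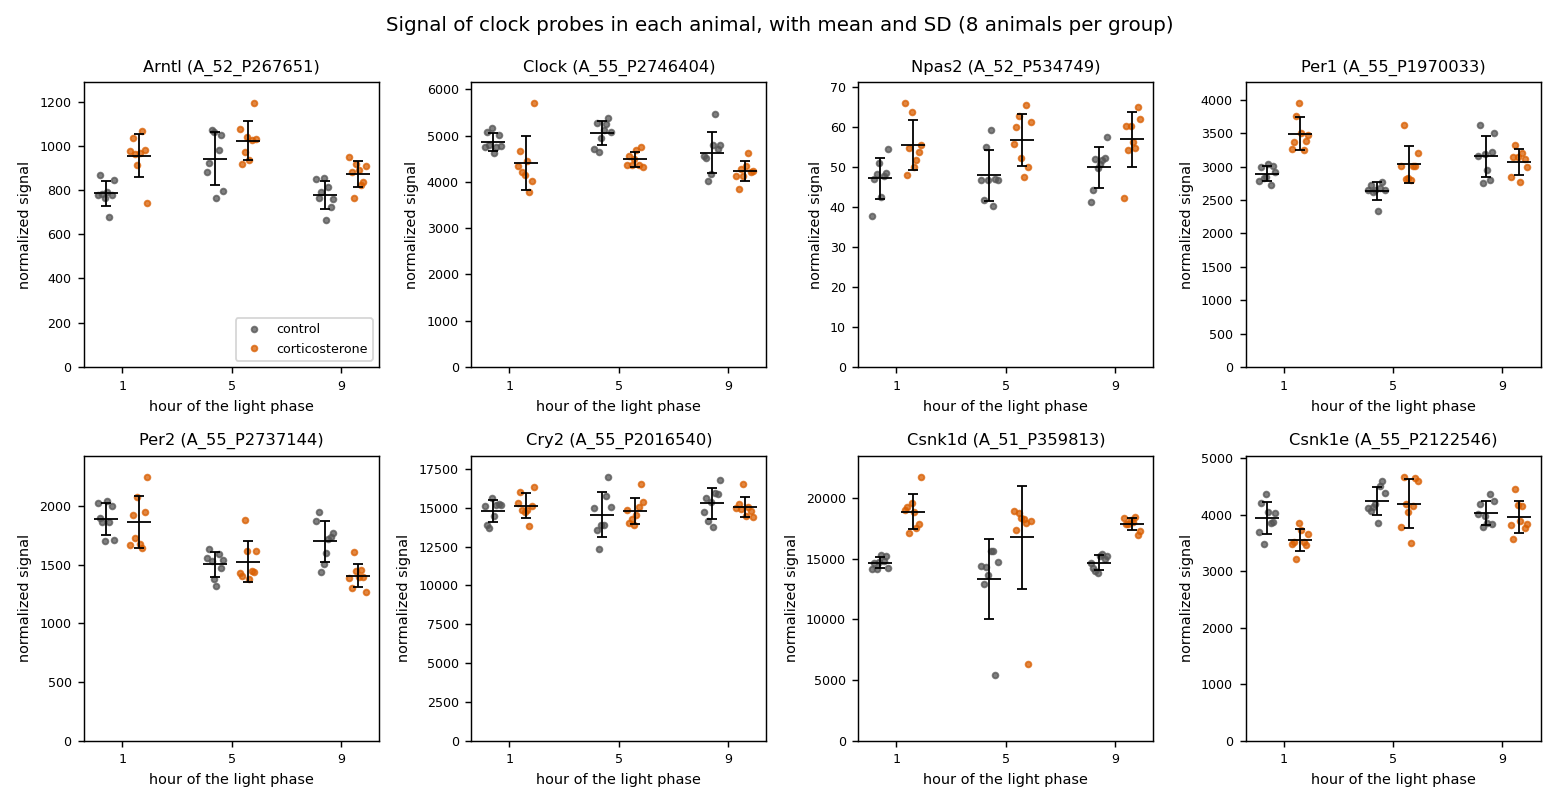
Normalized signal of the brightest probe of 8 clock genes in each animal, against the hour of the light phase, with the mean and SD of 8 animals per group. Per1 groups do not overlap at the first and the fifth hour, and a pair of low Csnk1d points at the fifth hour, 5419 and 6299, comes from 1 array.

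A further question was how the loop ran through the resting period itself. In control animals hardly any member passed, although Per1 and Per2 had their lowest group means at the fifth hour and Arntl its highest. Between the fifth and the first hour none of the 21 probes passed in limma's separate channel test, beside 0.0053% of all probes. At an unadjusted p under 0.05 there were 9 of the 21, beside 4078 of all 56605 probes. Between the ninth and the first hour none passed either, beside 0.537% of all probes. Here 5 of the 21 had an unadjusted p under 0.05, beside 5801 of all 56605 probes. Between the ninth and the fifth hour 1 passed, Per1, which is 4.76% of the members beside 0.0336% of all probes and 0.0562% of those with a signal of 50 or more. These comparisons share animals, and they lie within a dye, so that a dye preference cancels. Of 4 endothelial markers, 1 was called lower at the ninth hour against the fifth and 1 against the first. Their part in the result was not tested.

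In control animals Per1 rose by a log2 difference of 0.25 ± 0.06 between the fifth hour (2341 to 2774, median 2650) and the ninth (2757 to 3622, median 3175). The groups overlapped by little, and the adjusted p of 0.0456 lay just inside the threshold. It was 0.74, 0.232 and 0.507 without slides 1, 2 and 3 and 0.0504 without the array of replicate 7 and 0.0532 without replicate 1 of the first hour. With slide as a block it was 0.0719, and in 3 other settings 0.0589 to 0.0945, while the differences within slides 1, 2 and 3 were 0.24, 0.19 and 0.32. The Per2 signal of control animals was 1705 to 2045 (median 1881) at the first hour and 1318 to 1631 (median 1535) at the fifth. These groups did not overlap, but the log2 difference of -0.33 ± 0.07 did not pass over all probes (adjusted p = 0.142). The brightest Arntl probe had medians of 780, 952 and 779 over the 3 hours, with log2 differences of 0.25 ± 0.07 from the first to the fifth hour (adjusted p = 0.348) and of -0.27 ± 0.07 from the fifth to the ninth (adjusted p = 0.24).

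In corticosterone-treated animals the loop genes that passed mostly fell. From the first to the ninth hour 2277 of all probes passed in treated and 304 in control animals. A call in treated and not in control animals is therefore no test of a difference between them. Of the 21 probes only Per1 passed for the change of the corticosterone effect over these hours. From the first to the ninth hour 4 of the 21 probes passed, all lower, on Per1, Per2, Arntl and Cry1, which is 19% of them beside 4.02% of all probes and 6.56% of those with a signal of 50 or more. The median log2 difference of the 21 was -0.10, with 0.000586 over all probes. Among the cell type markers 2 of 4 endothelial, 2 of 5 microglial and 1 of 10 neuronal ones were called over the same hours, all higher. The endothelial sums of treated animals had medians of 6597, 7707 and 7527 over the 3 hours and the microglial sums 13486, 14180 and 15025, and their part in the result was not tested. From the first to the fifth hour, where 1 endothelial, 1 microglial and 1 oligodendrocyte marker were higher and 1 astrocyte marker lower, 2 of the 21 passed (9.52% beside 0.546% of all probes and 0.89% of those with a signal of 50 or more), Per2 lower and Csnk1e higher. From the fifth to the ninth hour none passed in limma's separate channel test, beside 0.661% of all probes. Here 4 of the 21 had an unadjusted p under 0.05, beside 5835 of all 56605 probes.

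Per2 gave the largest of these calls. In treated animals it went from 1645 to 2246 (median 1828) at the first hour to 1375 to 1885 (median 1442) at the fifth and to 1269 to 1605 (median 1397) at the ninth. The groups of the first and the ninth hour did not overlap. Per2 fell by 0.29 ± 0.07 on the log2 scale to the fifth hour (adjusted p = 0.0453) and by 0.40 ± 0.07 to the ninth (adjusted p = 0.000187). The fall to the ninth hour was 0.32, 0.35 and 0.54 within slides 1, 2 and 3. The call of the fifth hour was lost without slide 1 (adjusted p = 0.195), slide 2 (0.106) or slide 3 (0.681) and without replicate 7 (0.0831) or replicate 2 (0.0948) of the fifth hour, and in 3 further settings (0.052 to 0.0792). Control animals also had a lower Per2 signal at the fifth hour than at the first, without a call, as described above.

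Per1 in treated animals went from a median of 3434 at the first hour to 3007 at the fifth and 3132 at the ninth. It fell by 0.19 ± 0.06 from the first to the ninth hour (adjusted p = 0.0273), and the difference of -0.21 ± 0.06 to the fifth hour was at the threshold (adjusted p = 0.0532, and 0.0484 with slide as a block). The call was lost without slide 1 (adjusted p = 0.0577), slide 2 (0.406) or slide 3 (0.133), and the fall within slides 1, 2 and 3 was 0.09, 0.33 and 0.14.

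The dimmer Arntl probe A_66_P127371 fell by 0.32 ± 0.09 in treated animals from the first hour (127 to 155, median 134) to the ninth (86.2 to 126, median 109), and the groups did not overlap (adjusted p = 0.0116). Without slide 1 the adjusted p was 0.469 and without slide 2 it was 0.109. For the brightest Arntl probe the same difference was -0.13 ± 0.07 (adjusted p = 0.384), and for A_55_P2735445 it was -0.37 ± 0.14 (adjusted p = 0.14). The Cry1 probe A_55_P2880103 fell by 0.29 ± 0.09 (adjusted p = 0.0344), from a median of 71.2 to 58.1 with overlapping groups. The brightest Cry1 probe had -0.37 ± 0.12 (adjusted p = 0.0561). Over the same hours it had -0.29 ± 0.12 in control animals (adjusted p = 0.348). There the probes A_55_P2880103 and A_66_P127371 had -0.05 ± 0.09 (adjusted p = 0.837) and -0.02 ± 0.08 (0.931). The Cry1 call was lost without slide 1 (adjusted p = 0.0879), slide 2 (0.309) or slide 3 (0.222).

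Csnk1e was called higher by 1 of its 3 probes. In treated animals the brightest went from 3210 to 3859 (median 3513) at the first hour to 3492 to 4664 (median 4177) at the fifth, with overlapping groups. The rise was 0.24 ± 0.05 on the log2 scale (adjusted p = 0.0118), and the fifth-hour level of the treated animals, 4197 ± 428 (SD, n = 8), was near that of the control animals, 4234 ± 248. Without slide 1 the adjusted p was 0.0925 and without slide 3 it was 0.679. The probes A_55_P2122555 and A_55_P2501349 had 0.10 ± 0.06 (adjusted p = 0.565) and 0.10 ± 0.07 (0.665). Clock, Npas2, Per3, Cry2 and Csnk1d had no call between hours in either group.

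**Figure D4:**
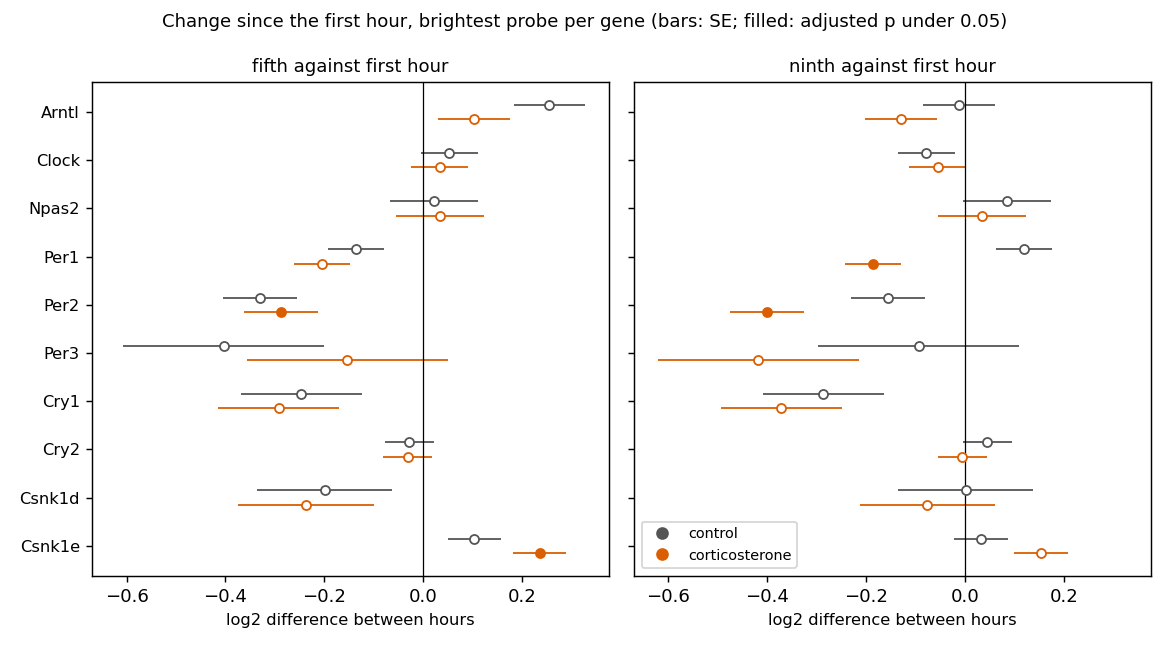
Log2 difference against the first hour, at the fifth (left) and at the ninth (right), for the brightest probe of each of the 10 genes, in control and in corticosterone-treated animals, with bars of 1 SE. Filled points passed an adjusted p of 0.05: Per2 and Csnk1e at the fifth hour and Per1 and Per2 at the ninth, all in treated animals.

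Some genes of the wider clock had larger differences across the resting period than any core gene. Of 26 other clock genes, 25 had a named probe. In control animals 4 of the 25 passed from the first to the ninth hour, 3 higher and 1 lower, beside 0.537% of all probes and 0.921% of those with a signal of 50 or more. Ciart (log2 1.10 ± 0.18), a repressor of the BMAL1 dimer, Nr1d1 (1.01 ± 0.13), which encodes REV-ERB alpha, the repressor of Arntl, and Dbp (0.85 ± 0.09), the classical output gene that acts on D-boxes, were the largest. In treated animals 7 passed, 5 higher and 2 lower, beside 4.02% of all probes, led by Nr1d1 (1.11 ± 0.13), Dbp (0.89 ± 0.09) and Ciart (0.78 ± 0.18). The brightest probes of the 10 core genes lay between -0.42 and 0.15 in both groups, and this gap in size was not tested. None of the 25 passed for a change of the corticosterone effect between any pair of hours in limma's separate channel test. Over all probes 0.0389, 0.827 and 0.083% were called, from the first hour to the fifth and the ninth and from the fifth to the ninth. At an unadjusted p under 0.05 there were 2, 4 and 3 of the 25, beside 2530, 4053 and 2934 of all 56605 probes.

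From the fifth to the ninth hour Ciart (0.88 ± 0.18) and Dbp (0.76 ± 0.09) passed in control animals (0.0336% of all probes called). In treated animals 3 of the 25 passed (0.661% of all probes called), Ciart (0.71 ± 0.18), Dbp (0.71 ± 0.09) and Fbxw11 (-0.22 ± 0.04), a subunit of the ligase that marks PER for destruction. From the first to the fifth hour none passed in control animals in limma's separate channel test (0.0053% of all probes called). There 1 of the 25 had an unadjusted p under 0.05, beside 4078 of all 56605 probes. In treated animals 1, Nr1d1 (0.66 ± 0.13), passed (0.546% of all probes called).

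After corticosterone, 9 of the 25 passed at the first hour (5 higher and 4 lower), 7 at the fifth (5 and 2) and 7 at the ninth (5 and 2), beside 17.5, 18.1 and 14% of all probes at these hours. Of the probes with a signal of 50 or more, 20.1, 20.1 and 14% passed. The median log2 differences of the 25 were 0.08, 0.05 and -0.01. At the first hour the largest were Nfil3 (0.36 ± 0.06), whose protein opposes DBP at D-boxes, Dbp (-0.27 ± 0.08) and Arntl2 (-0.26 ± 0.06), the paralogue of Arntl. At the fifth hour they were Btrc (0.23 ± 0.06), a further ligase subunit for PER, Arntl2 (-0.18 ± 0.06) and Timeless (-0.18 ± 0.05). At the ninth hour Nr1d1 (0.33 ± 0.11), Arntl2 (-0.26 ± 0.06) and Nfil3 (0.24 ± 0.06) led.

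**Figure D5:**
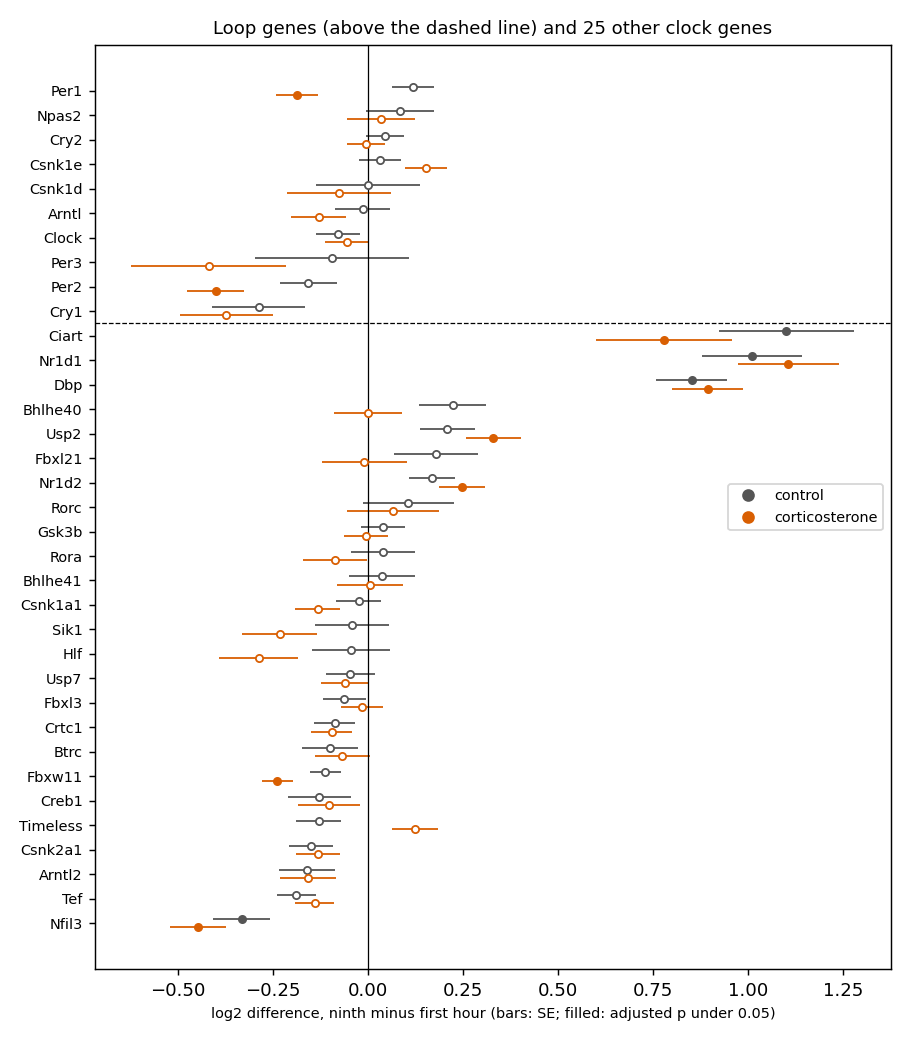
Log2 difference of the ninth against the first hour in control and in corticosterone-treated animals for the brightest probe of the 10 core genes (above the dashed line) and of 25 other clock genes (below it), with bars of 1 SE and filled points where an adjusted p of 0.05 was passed. Ciart, Nr1d1 and Dbp rose in both groups by 0.78 to 1.11, beyond each of the core genes.

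The probes whose signal followed that of a core gene most closely were named by the lower of Pearson's r over the 24 control and over the 24 treated animals. For Per1 these were Mc4r (r of 0.70 and 0.71), Dyrk3 (0.74 and 0.65) and Lrrc8c (0.59 and 0.61). For Per2 they were Rbm3 (0.67 and 0.69), which encodes a cold-induced RNA-binding protein, Gpr161 (0.63 and 0.75) and Wdcp (0.62 and 0.70). For Arntl they were Pitpnm2 (0.67 and 0.70), Snrnp200 (0.65 and 0.66) and Arhgef2 (0.69 and 0.64). The animals share arrays, slides and hours, and 22419 probes were searched for Per1 and Per2 and 22417 for Arntl, so the values describe likeness of pattern only.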

How the data were processed

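Hippocampal RNA of single animals was labelled and hybridized by the authors on Agilent arrays, and the deposited scanner files (Agilent Feature Extraction 10.7.3.1) hold unnormalized pixel intensities of the spots and the background around them in each channel, with marks for outlier spots and for signal well above background. A table that the authors deposited holds log2 ratios per array. Their correlation with the ratios of Cy5 over Cy3 computed here was 0.988 to 0.997, so that they run in the same direction, with column medians of 0.00239 to 0.00889. Their normalization beyond the methods is not given in the sources used here. Groups, dyes and time points came from the labels, and the hour of each time point is that given in the methods of the study.

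Intensities were analysed in R 4.3.3 with limma 3.58.1 and statmod 1.5.0. Background was removed by normexp (offset 50 where p values were computed, offset 0 where fold changes and SEs were), followed by loess within arrays and quantile normalization between arrays. Of 62976 spots per array, 3671 control spots were left out, copies of a probe were averaged, and spots marked as outliers were treated as missing. None of the spots was saturated. The separate channel test of limma fitted the 6 groups of treatment by hour with the 2 channels of an array correlated (0.279). P values were adjusted over 56605 probes by Benjamini and Hochberg, two-sided, with significance at 0.05. Genes were named through the transcript identifiers of the files and RefSeq tables of GRCm38.p6, which named 34566 probes. The number of arrays limits the precision, and 24572 probes had a mean signal under 50. The scripts were also run on simulated data, where the changes were known. Promoters were searched and figures drawn in Python 3.11.15 with matplotlib.

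The members, the further lists and the motifs were chosen with earlier results of these data known. All probes of the 10 genes were reported. Of the other clock genes, up to 3 called genes with the largest differences were named per comparison. For likeness of pattern, the 3 named genes with the highest r were given, among probes with a signal of 50 or more. Cell type and glucocorticoid lists used the brightest probe of each gene. Alternatives were other offsets, background, within-array and between-array settings, the processed signals of the scanner software, outlier spots kept, slide as a block, each slide left out, values within slides, limma on log ratios, the authors' log2 ratios and a limit on dim probes. Leaving out 1 of 3 arrays in turn (the array of the fifth hour with the low Csnk1d spot, replicate 1 of the first hour and replicate 2 of the fifth) was chosen after seeing the data, and the other arrays were not left out singly.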

Additional observations from a re-analysis of the deposited data

Results flagged for a closer look

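The effect of corticosterone on Per1 differed between hours, with a change of -0.31 on the log2 scale from the first to the ninth hour in limma's separate channel test (adjusted p = 0.00398). The arrays of the first hour all gave a higher treated channel, and at the ninth hour 2 of 8 did.

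In 17 of 126 groups of 8 animals, over the 21 probes and 6 groups each, the highest or the lowest animal stood apart, with a gap to its neighbour of more than 0.526 of the range of the group on the log2 scale. Chance alone marks about 1 group in 20. The widest gaps were those of the brightest Csnk1d probe at the fifth hour, 0.919 of the range in treated and 0.822 in control animals, both at the low end and both on the array of replicate 7 on slide 3. The neighbouring animals gave 17351 and 12953, against 6299 and 5419 on that array.

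Further low animals were seen for Per3 A_66_P135046 (treated animals of the fifth hour, 0.722), Cry1 A_55_P2880103 (treated animals of the fifth hour, 0.686), Per1 (control animals of the fifth hour, 0.652) and Clock A_55_P2741789 (control animals of the fifth hour, 0.589). The same held for Cry1 A_52_P420500 (control animals of the fifth hour, 0.581), Npas2 (treated animals of the ninth hour, 0.574), the brightest Arntl probe (treated animals of the first hour, 0.571), Csnk1e A_55_P2501349 (treated animals of the ninth hour, 0.557) and Arntl A_66_P127371 (treated animals of the ninth hour, 0.53). High animals were seen for Clock A_52_P334670 (treated animals of the ninth hour, 0.637), Cry2 (treated animals of the ninth hour, 0.594), Per3 A_55_P2752088 (control animals of the first hour, 0.567) and Csnk1e A_55_P2122555 (control animals of the fifth hour, 0.562). Cry1 A_55_P2880103 (treated animals of the ninth hour, 0.538) and Clock A_55_P2741789 (control animals of the ninth hour, 0.526) completed the high ones.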

How the results depend on the processing

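None of the calls of member probes changed direction under any alternative run for them. For the other gene lists, alternatives are not given here. Per1 at the first and the fifth hour, the brightest Arntl probe at the first hour and the fall of Per2 in treated animals from the first to the ninth hour kept their calls in all refits, with adjusted p of at most 0.00967, 0.0417, 0.023 and 0.0395. Counts of called member probes depended most on the slides, and leaving out 1 slide also leaves fewer animals. For corticosterone against control at the first hour, 7 calls became 4 (3 kept and Csnk1e A_55_P2501349 added), 2 and 4 without slides 1, 2 and 3. At the fifth hour 5 calls became 3 with Aquantile normalization, 3 without replicate 2 of that hour (2 kept and Per3 A_66_P135046 added) and 2 without slide 3. It was 4 without slide 1 (2 kept, with Per3 A_66_P135046 and a higher Clock A_55_P2741789 added) and 4 without slide 2 (3 kept and Csnk1e A_55_P2501349 added). At the ninth hour 1 call became 3 with Aquantile normalization (Arntl and Clock added) and with the processed signals (Csnk1d and Npas2 added), and 2 (Csnk1d added) with limma on log ratios, with the authors' log2 ratios and without replicate 7 of the fifth hour. Without slide 3 it stayed at 1, with Csnk1d in place of Per2. For control animals from the fifth to the ninth hour, 1 call became 0 with an offset of 0 for p values, without background correction, with the processed signals, with slide as a block, without slide 1, 2 or 3, without replicate 7 and without replicate 1 of the first hour. For treated animals from the first to the fifth hour, 2 calls became 1 with an offset of 0, without background correction, with log ratios centred on the median, with the processed signals, without slide 2 and without replicate 7, and 0 without slide 3. Without slide 1 both were lost and Per1 was the 1 call (adjusted p = 0.022). Per1 was also added with slide as a block (0.0484), without replicate 2 of the fifth hour (0.0108) and among probes with a signal of 50 or more (0.033). Between the fifth and the ninth hour 0 became 1 without replicate 2 of the fifth (Arntl A_66_P127371). From the first to the ninth hour, 4 calls became 2 with an offset of 0 and with the processed signals, and 1, 2 (1 kept and Arntl A_55_P2735445 added) and 2 without slides 1, 2 and 3. The brightest Cry1 probe was added with Aquantile normalization (0.0493), without replicate 7 (0.0459) and among probes with a signal of 50 or more (0.0344), where a rise of Csnk1e was added too (0.0495). The 1 call for a change of effect since the first hour, Per1 at the ninth, became 0 without slide 2 or 3. Beside the slides named in the report, single calls were lost for Clock at the first hour with the processed signals (adjusted p = 0.0643), for Npas2 with limma on log ratios at the first (0.0692) and the fifth hour (0.0502) and with the authors' log2 ratios at the first (0.0526), and for Csnk1d at the fifth hour with Aquantile normalization (0.0515). In treated animals the fall of Per2 to the fifth hour was lost with an offset of 0 (0.0792), without background correction (0.0529) and with log ratios centred on the median (0.052), the rise of Csnk1e with the processed signals (0.0568), the fall of Per1 to the ninth hour with an offset of 0 (0.0546) and the processed signals (0.116), and that of Cry1 with an offset of 0 (0.0642), log ratios centred on the median (0.0629) and the processed signals (0.133). The dimmer Arntl probe A_66_P127371 lost its first-hour call in 8 settings (adjusted p of 0.0228 to 0.29 over all of them), and Csnk1d A_66_P108452 lost that of the fifth hour in 12 (0.0381 to 0.33). The cause of these changes was not tested. Replicate numbers follow accession order and pair no animals between hours. The animals paired on an array entered the main test through the correlation of the channels, and limma on log ratios was the fully paired test. Differences in dim probes such as Npas2 rest on signals near background.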
